A study of Arabidopsis thaliana with 4 samples.

Results

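PRK, RCA and SBPASE encode enzymes of the Calvin-Benson cycle, the chloroplast pathway that fixes carbon dioxide into sugar phosphates, and their transcripts were followed here in Arabidopsis mesophyll protoplasts that expressed the kinase KIN10. The members were found by gene name. Each of the 3 genes (PRK, AT1G32060; RCA, AT2G39730; SBPASE, AT3G55800) had 1 probe set with that gene as its single name, out of 13350 genes with a probe set of this kind. All 3 passed the filter on low signals, which kept 13648 of 22746 probe sets. The chromosomal position of the probes and the RCA transcripts they match were not analysed here, although RefSeq lists 3 transcripts for RCA and 1 each for PRK and SBPASE.

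In the cycle, Rubisco joins carbon dioxide to ribulose bisphosphate, the products are reduced at the cost of ATP and NADPH, and most of the resulting triose phosphate is used to rebuild the acceptor. SBPASE, sedoheptulose bisphosphatase, removes a phosphate in the rebuilding part of the cycle and is switched on in the light by reduction through thioredoxin. PRK, phosphoribulokinase, spends ATP to make ribulose bisphosphate, the acceptor itself. It is held inactive in the dark in a complex with glyceraldehyde-3-phosphate dehydrogenase and the small protein CP12. RCA, Rubisco activase, is an ATP-driven remodelling protein that frees Rubisco from inhibitory sugar phosphates. KIN10 is a catalytic subunit of SnRK1, a protein kinase that is active when cellular energy is low and is known for raising transcripts of catabolism and lowering those of biosynthesis.

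The study compared wall-less leaf cells that received control plasmid DNA with cells that received a plasmid for KIN10 (AT3G01090). Both groups were incubated for 6 h in the light, and each was measured on 2 Affymetrix arrays. For every array the labels give a photoperiod of 13 h and a harvest 2 h after light onset. For each experiment, leaf cells of 36 plants were pooled and shared between a control and a KIN10 transfection. The 2 experiments differed in operator, soil, plants, growth chamber, DNA and array facility, so the array number stands for all of these together. KIN10 came from a transfected plasmid, and the labels give neither its promoter nor the share of cells that took it up. The labels name no genotype or accession of the plants.

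Between arrays, the log2 signals correlated with an r from 0.881 to 0.932 across probe sets, which are not independent replicates. The median signal was 490 on control 1, 522 on KIN10 1, 344 on control 2 and 276 on KIN10 2. None of the 7 mesophyll markers listed for this work had a single-name probe set, so the tissue label could not be checked with them. The same was true of the markers for epidermis (4), phloem (3) and trichomes (2). Of 4 guard cell markers, FMA had signals of 586, 479, 262 and 146 on control 1, KIN10 1, control 2 and KIN10 2, and AT1G22690 had 116, 244, 61.1 and 66.3. The part of other cell types in the results below was not tested. In these bulk samples, fewer cells of a type and less RNA per cell cannot be told apart.

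PRK transcripts were higher with KIN10 in both experiments. The PRK probe set had a signal of 2004 on control 1 and 4058 on KIN10 1, and of 5426 on control 2 and 7958 on KIN10 2. The KIN10 array was the higher of the pair each time, but the groups overlapped, because control 2 lay above KIN10 1. After each array was centred on the median log2 signal of its probe sets, the log2 change was 0.93 in experiment 1 and 0.87 in experiment 2. The mean change was 0.90 ± 0.31 (SE, n = 2 arrays per group), a 1.87-fold rise with a 95% interval from 1.22-fold to 2.86-fold, and it passed the test across all probe sets (limma, adjusted p = 0.0174).

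RCA gave a smaller difference in the same direction. Its signal was 17903 on control 1, 25411 on KIN10 1, 30261 on control 2 and 39110 on KIN10 2. Again KIN10 was higher within each experiment and control 2 was higher than KIN10 1. The centred log2 changes were 0.42 and 0.69 in experiments 1 and 2. The mean of 0.55 ± 0.35 did not pass the test (limma, adjusted p = 0.240), and its 95% interval ran from 0.913-fold to 2.35-fold, which includes the change found for PRK.

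SBPASE had the smallest mean change of the members on the median-centred scale, whereas RCA had the smallest after quantile normalization (0.31 against 0.37 for SBPASE) and cyclic loess (0.36 against 0.43). Its signal was 2504 on control 1, 3604 on KIN10 1, 5053 on control 2 and 5854 on KIN10 2. The order of the arrays was that of PRK and RCA, with overlap between the groups. The centred log2 changes were 0.44 and 0.53 in experiments 1 and 2, with a mean of 0.48 ± 0.31 and a 95% interval from 0.914-fold to 2.14-fold (limma, adjusted p = 0.253). A change of this size was therefore not called, and an absence of change was not shown either.

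**Figure D1:**
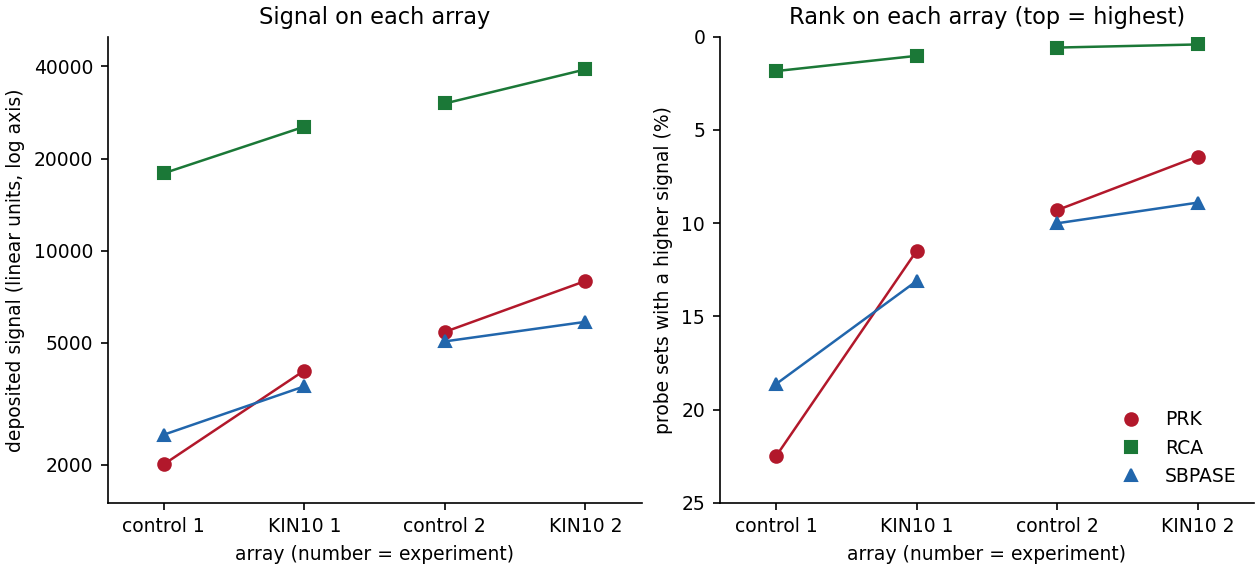
The left panel shows the deposited signal of PRK, RCA and SBPASE on the 4 arrays (linear units on a log axis), and the right panel the percentage of the 22746 probe sets with a higher signal on the same array, with lines joining the control and KIN10 array of an experiment. The right axis is inverted, so that higher on the page means a brighter rank. All 3 lines go up in both experiments, and every experiment 2 point lies above both experiment 1 points of its gene.

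Counted together, 1 of the 3 members was called higher with KIN10 and none lower by limma, and at an unadjusted p under 0.05 the count higher was also 1. Over all probe sets tested, 14.7% were called higher and 15.5% lower, or 30.2% in either direction. The members were all higher in both experiments on the centred scale, as were 39.0% of the probe sets tested. In none of the 3 were both KIN10 arrays above both control arrays, which was the case for 17.7% of the probe sets tested. With 2 arrays against 2, an exact permutation test over arrays cannot give a two-sided p below 0.333, so none is reported for single genes.

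The adjusted p of PRK rests on the experiment block, which compares arrays within an experiment. Without it, the same change of 0.90 was not called (limma, adjusted p = 0.845), and RCA (adjusted p = 0.919) and SBPASE (adjusted p = 0.943) were not called either. The limma standard errors also hardly reflect the single gene, since the prior had 1311 degrees of freedom against 1 residual degree of freedom. On simulated arrays whose genes varied more in spread than this prior allows, false calls could be more frequent than the threshold permits, so the adjusted p-values hold only as far as the prior does.

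The place of each change among all probe sets tested does not depend on how an array is centred, since centring shifts all its probe sets alike. It can depend on a normalization that varies with signal level. After quantile normalization the mean change of RCA (0.31) fell below that of SBPASE (0.37). The places below are on the median-centred scale. In experiment 1 the PRK change exceeded 91.2% of the 13648 probe sets, and in experiment 2 it exceeded 82.9%. The RCA change exceeded 76.3% and 77.0% in experiments 1 and 2, and the SBPASE change 77.2% and 70.3%. All 3 changes thus stood above the median of the array in both experiments, and the PRK change stood highest in each. The median log2 change of all probe sets tested was -0.06 in experiment 1 and 0.13 in experiment 2.

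Which experiment gave the larger change did depend on the centring. As deposited, the signal of PRK was 2.03-fold higher with KIN10 in experiment 1 and 1.47-fold in experiment 2, against 1.90-fold and 1.83-fold after centring. For RCA the deposited ratios were 1.42 and 1.29, against 1.33 and 1.61 after centring. For SBPASE they were 1.44 and 1.16, against 1.35 and 1.44. The direction was shared by both scales for all 3 members, and PRK had its larger change in experiment 1 on both, while the larger change of RCA and SBPASE moved from experiment 1 to experiment 2.

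**Figure D2:**
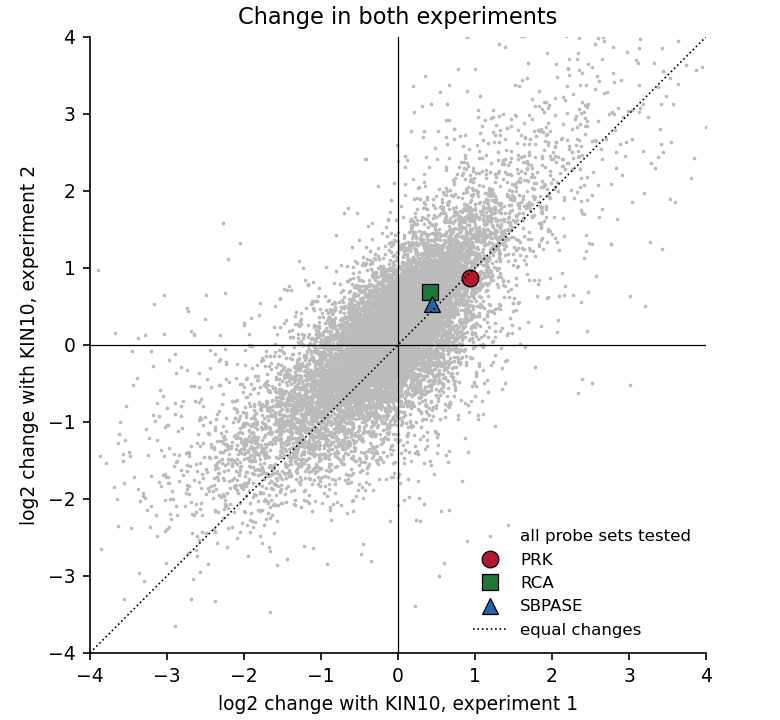
Each point is a probe set, with its median-centred log2 change with KIN10 in experiment 1 on the x axis and in experiment 2 on the y axis; 125 of the 13648 probe sets lie beyond the axes. PRK (0.93 and 0.87), RCA (0.42 and 0.69) and SBPASE (0.44 and 0.53) lie to the upper right of the origin, close to the line of equal changes and within the cloud of all probe sets.

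Differences between the members' changes can be read within an experiment, where a single scale factor of an array cancels. An array difference that varies with signal level does not cancel. After quantile normalization the mean change was 0.80 for PRK, 0.31 for RCA and 0.37 for SBPASE, which reverses the order of RCA and SBPASE. The differences below are on the median-centred scale. On it, the log2 change of PRK exceeded that of RCA by 0.51 in experiment 1 and by 0.18 in experiment 2, or 0.35 ± 0.23 (SD, n = 2 experiments). The PRK change exceeded that of SBPASE by 0.49 and 0.34 (0.42 ± 0.11). RCA and SBPASE differed by -0.02 and 0.16 (0.07 ± 0.13), which is within the spread between experiments and had no constant sign. PRK had the largest change of the 3 in both experiments, but these differences between genes were not tested, so the call for PRK alone does not show that RCA and SBPASE responded less.

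All 3 probe sets were among the brighter ones of every array. RCA held rank 420 of 22746 on control 1, 234 on KIN10 1, 133 on control 2 and 95 on KIN10 2, counted from the highest signal, so that at most 1.84% of probe sets were brighter. SBPASE held ranks 4239, 2982, 2277 and 2025 on the same arrays, which left between 18.6% and 8.90% of probe sets above it. PRK held ranks 5120, 2615, 2117 and 1463, with between 22.5% and 6.43% above it. A rank gives the place of a probe set's signal on its array and does not compare transcript amounts between genes, since probe sets differ in how brightly they bind. PRK moved up by more ranks than SBPASE from control to KIN10 in each experiment. It stood below SBPASE on control 1 but above it on the other 3 arrays. RCA, at ranks 420 and 133 on the control arrays, had few ranks left to move, so its move cannot be set against theirs.

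Signals relative to the array median showed the same order of arrays. PRK stood at 4.09 times the median signal on control 1, 7.78 times on KIN10 1, 15.8 times on control 2 and 28.9 times on KIN10 2. RCA stood at 36.5, 48.7, 88.1 and 142 times the median on these arrays, and SBPASE at 5.11, 6.91, 14.7 and 21.2 times. For each member the smallest multiple of experiment 2 was larger than the largest of experiment 1. The array median itself was lower in experiment 2 (344 and 276) than in experiment 1 (490 and 522), which enters these multiples.

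The difference between the experiments was larger than the change with KIN10 for every member. In control cells the deposited signal was 2.71-fold higher in experiment 2 than in experiment 1 for PRK, 2.02-fold for SBPASE and 1.69-fold for RCA. In KIN10 cells the ratios were 1.96, 1.62 and 1.54 in the same order. Averaged over control and KIN10, the deposited signal of PRK was 2.30-fold higher in experiment 2, while KIN10 was 1.72-fold above control on this scale. For RCA the corresponding folds were 1.61 and 1.35, and for SBPASE 1.81 and 1.29. An experiment difference above the KIN10 change in size, on deposited log2 signals, was found for 46.6% of the probe sets tested, so the members share this with many other genes.

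Against the other probe sets the experiment difference of the members was high. On centred log2 signals it was 1.92 for PRK, 1.57 for SBPASE and 1.41 for RCA, with a median of 0.56 over all probe sets tested. These values exceeded those of 98.2%, 95.8% and 93.3% of the probe sets tested. In experiment 2 the array median was lower, at 344 (control) and 276 (KIN10) against 490 and 522 in experiment 1. The 90th percentile was higher, at 5055 and 5170 against 4677 and 4616, so it stood farther above the median in experiment 2. The members are among the brighter probe sets, and the part of signal level in their places was not tested. The spread between experiments set the spread within groups, so that the centred log2 signal of PRK was 3.01 ± 1.38 in control and 3.91 ± 1.34 in KIN10 (SD, n = 2). For RCA these levels were 5.83 ± 0.90 and 6.38 ± 1.09, and for SBPASE 3.12 ± 1.08 and 3.60 ± 1.15. Without regard to the experiment, no member's group difference exceeded the spread within its groups. Operator, plants, growth chamber and array facility changed together between the experiments, so their parts in this difference cannot be told apart.

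**Figure D3:**
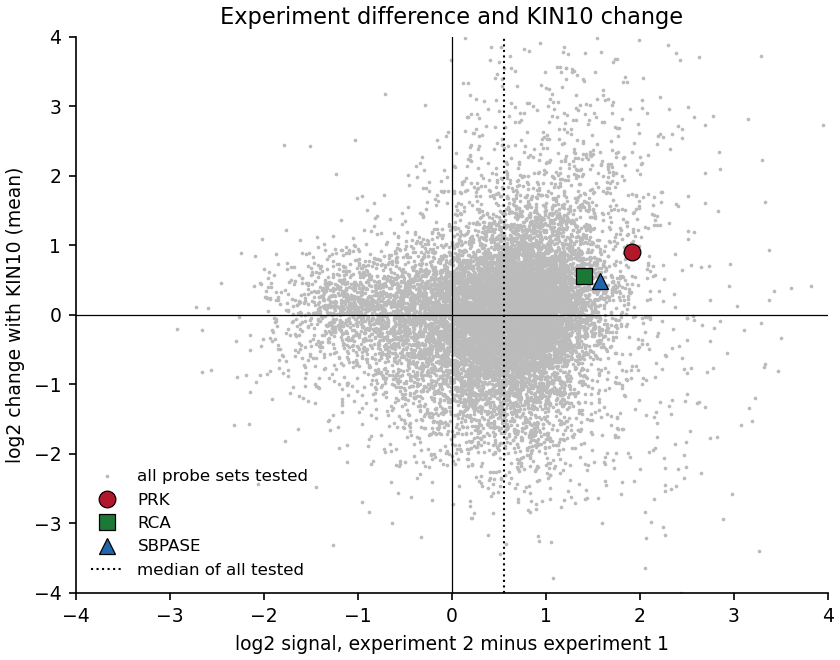
Each point is a probe set, with the centred log2 signal of experiment 2 minus experiment 1 on the x axis and the mean log2 change with KIN10 on the y axis; the dotted line marks the median experiment difference (0.56), and 56 of the 13648 probe sets lie beyond the axes. PRK (1.92), SBPASE (1.57) and RCA (1.41) lie to the right of the dotted line, at KIN10 changes of 0.90, 0.48 and 0.55.

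The arrays had the same order for all 3 members, from control 1 through KIN10 1 and control 2 to KIN10 2. On deposited signals this order was found for 4.51% of the probe sets tested (615 of 13648) and on centred signals for 17.4%. It is a joint description of a higher level in experiment 2 and a higher level with KIN10, and was not tested as a pattern.

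The likeness of patterns was measured as the Euclidean distance between centred log2 signals over the 4 arrays, after each probe set's own mean had been subtracted. Among 7470 other single-name genes, SBPASE had RCA as its neighbour number 14 (distance 0.20), and RCA had SBPASE as number 29. PRK was farther away, with SBPASE at place 55 (0.55) and RCA at place 109 (0.64) in its own order. In the orders of RCA and SBPASE, PRK stood at places 823 and 316. The genes nearest to PRK were AT2G20500 (distance 0.07), AT3G55070 (0.13) and AT1G65230 (0.15). Those nearest to RCA were AT3G06470 (0.04), AT1G12230 (0.05) and AT1G53560 (0.07). SBPASE was nearest to ETFALPHA (0.09), AT5G44450 (0.14) and AT5G57580 (0.15). With 4 arrays, many genes come close by this measure, and it carries no test.

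The rest of the Calvin-Benson cycle could be followed only in part. Of 24 genes listed, 6 had a single-name probe set and all 6 passed the filter. Besides the members these were AT5G64380, AT5G44520 and AT1G56190, to which the tables used give no name. No value is given here for the Rubisco subunits or the plastid glyceraldehyde-3-phosphate dehydrogenases, which had no probe set with a single name. Of the 6, 2 rose and 4 were not called, where 14.7% of all probe sets tested were called higher, and the median log2 change was 0.59 against 0.03 for all probe sets tested. On the median of the hybridization spike-ins, 1 of the 6 was called higher and 1 lower. The members were 3 of these 6 genes, so the list's median is not separate evidence for them.

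AT5G64380 had signals of 487 and 715 on control 1 and KIN10 1, and of 274 and 704 on control 2 and KIN10 2. It rose by 1.07 ± 0.31 on the log2 scale (limma, adjusted p = 0.00269), with changes of 0.46 and 1.68 in experiments 1 and 2, which lie farther apart than those of any member. It was called in 7 of 11 alternatives that kept the block, but not without it (limma, adjusted p = 0.388). AT5G44520 had a mean change of 0.63 ± 0.27 (0.55 and 0.71, adjusted p = 0.0639 in limma), close to RCA and SBPASE. AT1G56190 was the only listed gene of the cycle with a negative change in both experiments (-0.41 and -0.03), and was not called except, as lower, on the median of the hybridization spike-ins (limma).

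Thioredoxins carry light-dependent reduction to SBPASE and PRK, and their list also covered CP12. Of 16 genes, 7 were measured, of which 1 rose and 6 were not called, with a median change of 0.37. The share called higher over all probe sets tested was 14.7%. No CP12 gene had a single-name probe set. TRXF2, an f-type thioredoxin of the class that activates enzymes of the cycle, rose by 0.87 ± 0.27 (limma, adjusted p = 0.00666). Its signal was 1010 on control 1, 809 on control 2, 1557 on KIN10 1 and 1504 on KIN10 2, so that both KIN10 arrays exceeded both control arrays. On deposited signals this was the case for 21.9% of the probe sets tested. ATHM2, an m-type thioredoxin, had a change of 0.64 ± 0.34, ty2 of 0.52 ± 0.31 and NTRC, a thioredoxin reductase of the chloroplast, of 0.37 ± 0.30. TY1 (0.19), AT2G04700 (0.15) and THX (-0.19) had the smallest mean changes. On the spike-in scale TRXF2 was not called (limma, adjusted p up to 0.289), nor was it without the block (adjusted p = 0.558).

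Rubisco needs chaperones to fold and assemble before RCA can act on it. Of 11 genes listed for its assembly, 5 were measured, of which 1 rose, 1 fell and 3 were not called. The shares over all probe sets tested were 14.7% higher and 15.5% lower. Cpn60beta2, a beta subunit of the chloroplast chaperonin, fell by 2.49 ± 0.32 on the log2 scale, from 11398 and 12480 on the control arrays to 1640 and 2347 on the KIN10 arrays. This was a 5.62-fold lower signal, and it was called under all 11 alternatives that kept the block but not without it (limma, adjusted p = 0.156). AT5G28500, unnamed in the tables used, rose by 0.83 ± 0.27 (limma, adjusted p = 0.0104), a call held in 8 of the 11 alternatives and lost as deposited and on both spike-in scales (adjusted p up to 0.330). Without the block AT5G28500 was not called either (limma, adjusted p = 0.530). AT5G51110 (0.46 ± 0.30), AT3G47650 (0.34 ± 0.31) and AT3G04550 (-0.39 ± 0.27) were not called.

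Photorespiration recycles the product that Rubisco makes when it binds oxygen, and returns glycerate to the cycle. Of 27 genes listed, 8 were measured, of which 3 rose, 1 fell and 4 were not called, against 14.7% higher and 15.5% lower over all probe sets tested, with a median change of 0.52. On the mean of the spike-ins 1 was called higher and 2 lower. HPR, hydroxypyruvate reductase, which makes the glycerate, rose by 1.26 ± 0.33 (limma, adjusted p = 0.000903). Its deposited signals of 8999 and 14635 on the KIN10 arrays lay above 4080 and 6614 on the control arrays. Such a separation of deposited signals was found for 21.9% of the probe sets tested. On the centred scale control 2 of HPR lay above KIN10 1, as it did for the members. LrgB, the chloroplast glycolate and glycerate transporter, rose by 1.00 ± 0.31 (limma, adjusted p = 0.00664), close to the change of PRK. AT1G80380 rose by 2.33 ± 0.33, the largest rise of the lists described here. Without the block none of these 3 rises was called (limma, adjusted p = 0.648 for HPR, 0.711 for LrgB and 0.207 for AT1G80380). On the mean of the spike-ins HPR and LrgB also lost their calls (limma, adjusted p = 0.151 and 0.305). AT2G35120 was called lower at -1.24 ± 0.46, but its changes of 0.54 and -3.01 had opposite signs in experiments 1 and 2, and its signal on KIN10 2 was 30.9. This call held in only 3 of the 11 alternatives that kept the block (limma, adjusted p up to 0.306).

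The light reactions supply the ATP and NADPH that PRK and the reduction step consume. Of 47 nuclear genes listed, 7 were measured, of which PSAN rose and 6 were not called, where 14.7% of all probe sets tested were called higher. As deposited and with centring on the kept probe sets, 4 of the 7 were called higher. PSAN, a subunit of photosystem I, had signals of 2752 and 6869 on control 1 and KIN10 1 and of 7869 and 24285 on control 2 and KIN10 2, and rose by 1.59 ± 0.33 on the log2 scale (limma, adjusted p = 1.69e-05). Control 2 lay above KIN10 1, as it did for the members. Without the block PSAN was not called (limma, adjusted p = 0.619). The list had a median change of 0.62, with medians of 0.23 and 0.96 in experiments 1 and 2, against 0.45 and 0.70 for the 6 genes of the Calvin-Benson list. PSAE-1 (0.84 ± 0.34), LHCB4.1 (0.63 ± 0.35) and PSBW (0.62 ± 0.34) had mean changes between those of PRK and RCA. PSAE-1 was called in 8 of the 11 alternatives that kept the block, and LHCB4.1 and PSBW in 2 each. The difference between these lists was not tested.

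**Figure D4:**
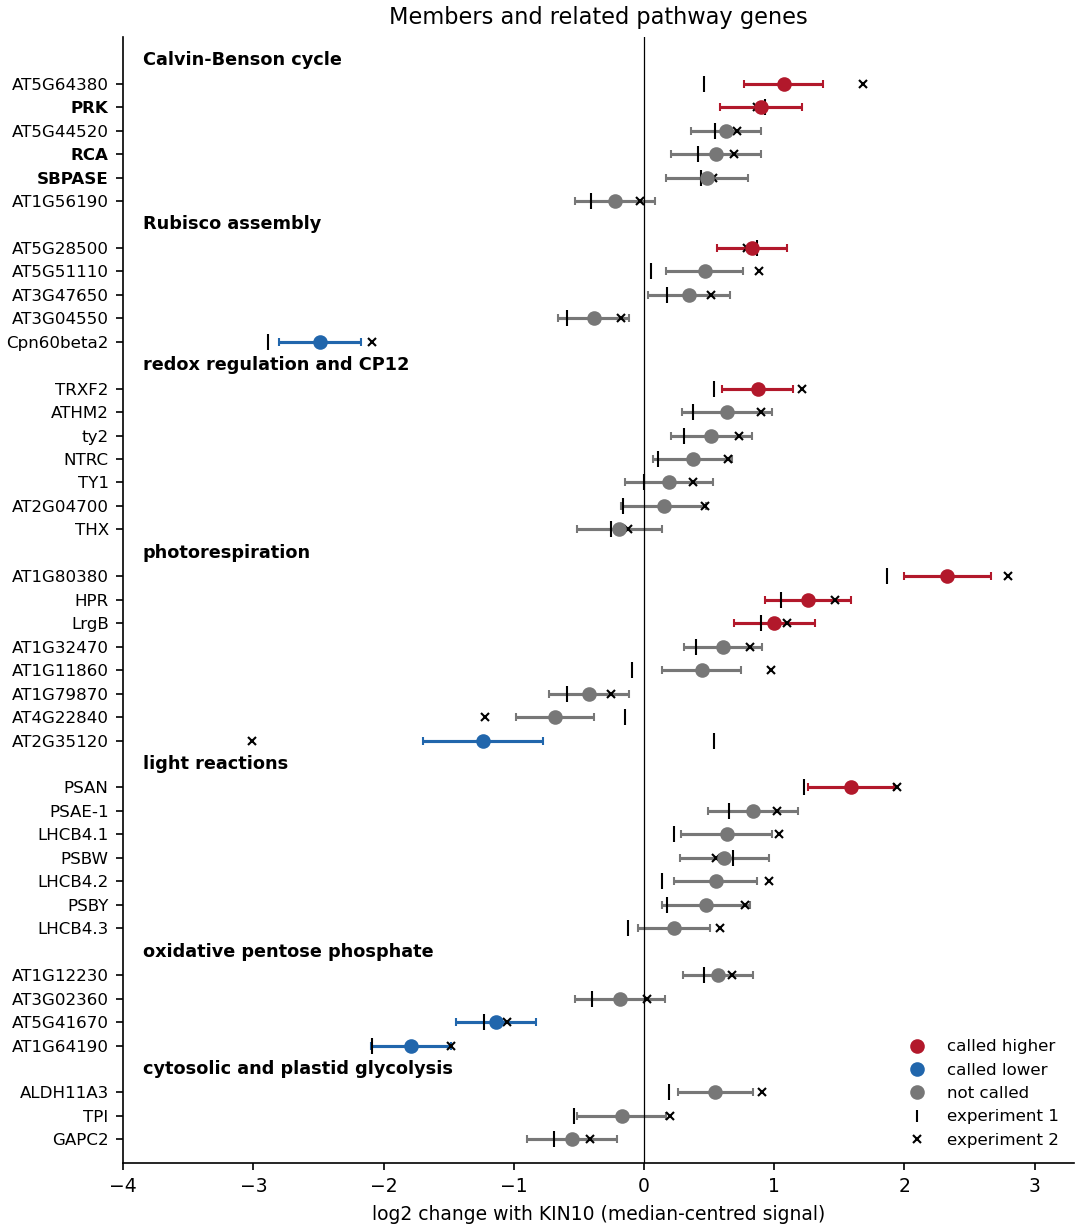
Mean log2 change with KIN10 (points) with its limma standard error (bars) for the measured genes of 7 lists, with the changes in experiment 1 (vertical ticks) and experiment 2 (crosses); red points were called higher, blue points lower and grey points not called. PRK, RCA and SBPASE (bold) lie between 0.48 and 0.90, while the listed genes as a whole run from -2.49 for Cpn60beta2 to 2.33 for AT1G80380.

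The members' changes were recomputed under other settings. In the 11 alternatives that kept the block, the PRK change ran from 0.52 to 0.90, that of RCA from 0.18 to 0.55 and that of SBPASE from 0.11 to 0.48, and none changed sign. PRK was called in 10 of these. The exception was the scale set by the mean of the hybridization spike-ins, on which PRK had a change of 0.52 and was not called (limma, adjusted p = 0.413). With the median of the same spike-ins it was called at 0.53 (limma, adjusted p = 0.0383). The spike-in scale lowered the median change of all probe sets tested from 0.03 to -0.34, so relative to other genes PRK kept its place. RCA was called with values as deposited (0.44, limma, adjusted p = 0.0333) and after centring on the probe sets that passed the filter (0.54, adjusted p = 0.0303). SBPASE was called in none of the 11 (limma, lowest adjusted p = 0.0791).

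**Figure D5:**
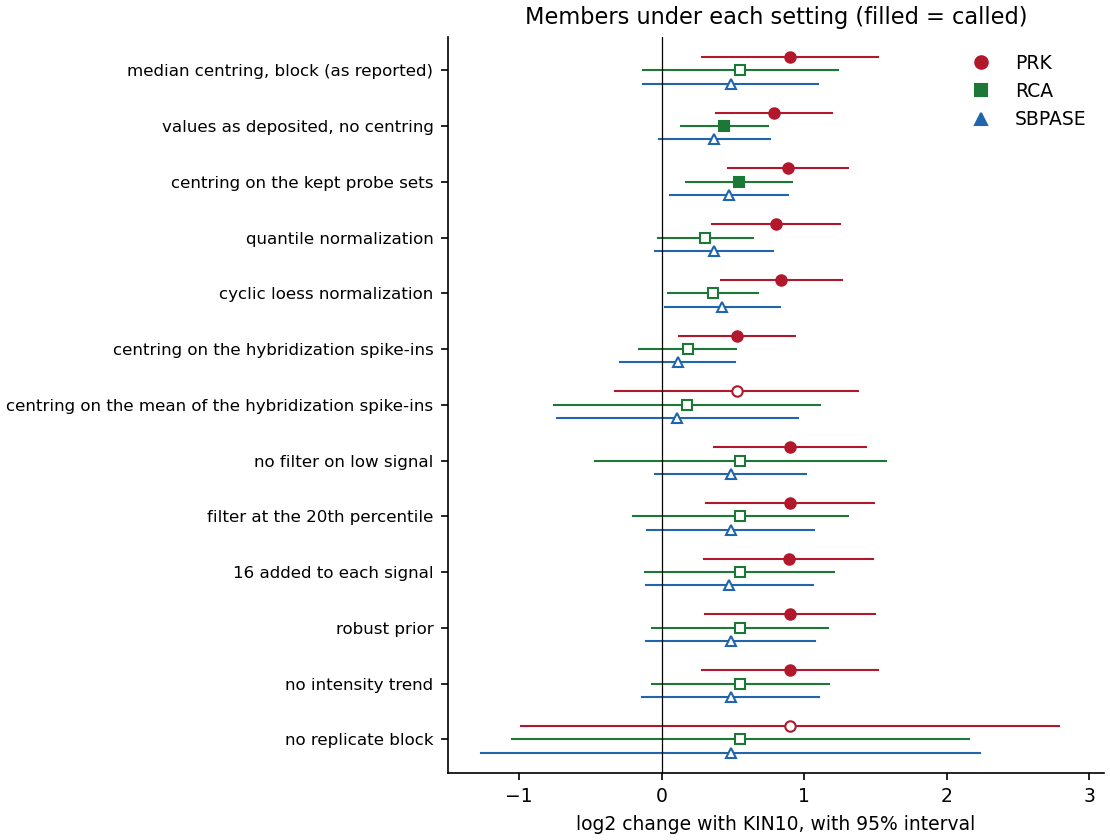
The log2 change with KIN10 is shown for PRK (circles), RCA (squares) and SBPASE (triangles) under the reported setting and 12 alternatives, with lines for the limma 95% interval and filled symbols where the adjusted p was under 0.05. The PRK symbols are filled in the reported setting and 10 alternatives, the RCA symbols in 2 and the SBPASE symbols in none, and the intervals are widest without the replicate block.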

How the data were processed

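The authors deposited 1 table of probe set intensity values for 4 arrays, and GCOS 1.0 is named in the submitters' processing notes. Neither its settings nor a genome build is given in the sources used here. The mean of the deposited values, trimmed by 2% at each end, was 1500.13 to 1500.15 on every array.

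From these, log2 signals were taken (1 value at or below 0 was set to the smallest positive value of its array) and the median over the 22746 probe sets other than Affymetrix controls was subtracted from each array. Probe sets below the 40th percentile of mean log2 signal were removed. KIN10 was compared with control with limma 3.58.1 in R 4.3.3 (lmFit, eBayes with an intensity trend, experiment as a block), with Benjamini-Hochberg adjustment over 13648 probe sets and calls at an adjusted p under 0.05. A block was used because each control and KIN10 transfection formed a pair in the submitters' design. Same-numbered arrays deviated together (r = 0.705 across probe sets). The fit was tested on simulated data with known changes: it recovered their mean size, and the share of false calls was near the threshold with the fitted spread but could exceed it where the spread varied more between genes. Replicates were independent experiments per the labels, and the number of arrays (2 per group) limits the precision.

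Names came from the platform annotation, updated by Entrez number through RefSeq (TAIR10.1). Of 13513 single names, 13436 matched. Measured genes of the Calvin-Benson, Rubisco assembly and redox lists were all named, of other lists the 4 with the largest change in size, and for each member the 3 genes most like it. None of 8 genes listed for carbon export had a single-name probe set. Members and lists were chosen with earlier results of these data known. Sequences were not used here.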

Additional observations from a re-analysis of the deposited data

How the results depend on the processing

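The changes of the 3 members, the number of probe sets called and the calls of the pathway lists were recomputed under 16 alternatives, of which 1, the mean of the spike-ins, was chosen after seeing the data. Without the replicate block, the changes of 0.90 (PRK), 0.55 (RCA) and 0.48 (SBPASE) were unaltered by construction, PRK lost its call, and 173 probe sets were called in place of 4117. With 1 array left out and no block, which pairs arrays of different experiments, the PRK change ran from -0.076 to 1.87, that of RCA from -0.22 to 1.32 and that of SBPASE from -0.33 to 1.29. Each was negative without control replicate 1 or without KIN10 replicate 2 and positive without the other 2 arrays, no member was called, and between 85 and 869 probe sets were called. In these fits the lone array is assumed to vary like the other group. Of the 6 measured genes of the Calvin-Benson list 2 were called, but 3 with centring on the kept probe sets and 1 without a filter on low signal. On the median of the spike-ins the count was also 2, with 1 higher and 1 lower. The limma count was 0 on the mean of the spike-ins (1 at an unadjusted p under 0.05), 0 without the block (1) and 0 with each array left out (0 to 3). PRK had a change of 0.52 and no call on the mean of the spike-ins, and RCA was called at 0.44 as deposited and at 0.54 with centring on the kept probe sets. The cause was not tested. On the spike-in scale 23.5% of calls were higher with the median of the spike-ins and 22.5% with their mean, against 48.7% after median centring. With the deposited scale, the median change of the probe sets tested was -0.08 instead of 0.03.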

Other observations

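The oxidative pentose phosphate pathway shares sugar phosphates with the Calvin-Benson cycle but breaks glucose phosphate down to make NADPH. Of 14 genes listed, 4 were measured, of which 2 fell, none rose and 2 were not called, where 15.5% of all probe sets tested were called lower, and no direction for the pathway was tested. AT1G64190 had signals of 5847 and 1460 on control 1 and KIN10 1 and of 7355 and 2111 on control 2 and KIN10 2, and fell by 1.79 ± 0.31 on the log2 scale (limma, adjusted p = 1.26e-07). AT5G41670 fell by 1.14 ± 0.31 (limma, adjusted p = 0.00135), from 5935 and 4827 on the control arrays to 2701 and 1865 on the KIN10 arrays. Both genes were called under all 11 alternatives that kept the block, but not without it (limma, adjusted p = 0.324 and 0.574). AT3G02360 (-0.19 ± 0.35) and AT1G12230 (0.57 ± 0.27) were not called. None of the 3 measured genes of glycolysis was called, with changes of 0.55 ± 0.29 for ALDH11A3, -0.17 ± 0.34 for TPI and -0.55 ± 0.34 for GAPC2. GAPC2 was called lower in 5 of the 11 alternatives that kept the block (limma, lowest adjusted p = 0.00035) and TPI in 1.

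PRK and LrgB lie 2 protein-coding genes apart in the RefSeq order (TAIR10.1), with NSI between them, and had like changes: 1.90-fold and 1.83-fold for PRK and 1.87-fold and 2.14-fold for LrgB in experiments 1 and 2. NSI has no value here, since it had no single-name probe set among those that passed the filter. Of the genes within 2 places of RCA, AT2G39725 had a change of -0.62 ± 0.29 and AT2G39750 of 0.01 ± 0.28, and AT3G55820, 2 places from SBPASE, had 0.41 ± 0.30. The pair was noticed after its values were seen, and no test bears on it.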
